A study of Homo sapiens with 3 samples.

Results

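The SOX2 RFX4 cells without PAX3 are day 5 barcodes of a fibroblast-to-neuron induction series that held at least 1 UMI of SOX2, at least 1 of RFX4 and 0 of PAX3, SMOC1, SLC17A6, GAD2 and SLC6A5. They numbered 1453 of 9219 kept day 5 barcodes (15.8%) and of 37446 kept barcodes in the series, and are called gated cells. Because the gate was chosen by counts of these 7 genes, those genes describe the cells and support nothing else. The study took BJ cells, an established human fibroblast line of WT genotype, through reprogramming, and sampled 1 library each at day 0 (BJ cells), day 3 and day 5 (FiN cells, labelled induced neuron cells). Per the labels' protocols, cells on a Poly-D-Lysine coat went from serum medium to an induction medium and then, from day 2, a maturation medium, both with forskolin, an activator of adenylyl cyclase, which was withdrawn on day 5. All 3 groups carry the same genotype and treatment label, no transgene is named, and the whole series rests on 1 line. Day 0 is the fibroblast baseline by its title, although its protocol text also lists the forskolin media.

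SOX2 is a transcription factor of neural stem and progenitor cells, and RFX4 belongs to the RFX family, winged-helix factors that bind X-box sequences and are expressed in the developing neural tube and in glia. PAX3 marks dorsal neural tube progenitors, SMOC1 is a secreted calcium-binding matrix protein, and SLC17A6, GAD2 and SLC6A5 serve glutamate, GABA and glycine transmission. Along the dorsoventral axis of the neural tube, the floor plate secretes sonic hedgehog, and progenitors at different heights express different sets of PAX, NKX6, DBX and IRX factors. Radial glia, the progenitors of the neural tube, later give rise to neurons and astrocytes.

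Levels are CPM, the UMIs of a gene summed over the barcodes of a set and scaled to counts per 1000000 UMIs of that set, with an exact Poisson 95% interval in parentheses. Each group is a single library, so nothing here was tested or checked against replicates, and intervals and limits cover counting error only. A gene was called higher or lower when the CPM ratio was at least 2, the larger CPM at least 10 and the intervals separate. The same gated cells enter every comparison. They were set beside all 7766 other kept barcodes, and beside subsets of these: 463 barcodes with the same SOX2 and RFX4 condition that held PAX3 and none of the other 4 genes (PAX3 barcodes), 362 barcodes with a UMI of SLC17A6, GAD2 or SLC6A5 and 0 of SOX2 and RFX4 (transmitter barcodes), and 2934 barcodes that failed the gate only for lack of SOX2. Median depth was 4807 UMIs in gated cells, 4967 in PAX3 barcodes, 3539 in transmitter barcodes, 3986.5 in the barcodes without SOX2 and 4300.5 over all others. The median mitochondrial share was 4.94% in gated cells and 4.50% in the others. Scrublet marked 1 of 9219 barcodes as a doublet and so was taken not to have worked, and doublets were kept. Shares of barcodes with a UMI were taken after thinning every barcode to 2155 UMIs.

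RFX4 was a broad marker of the day 5 library and SOX2 a sparse one. RFX4 was found in 89.7% of kept barcodes and SOX2 in 32.1%. Within the gate, 1091 cells (75.1%) held exactly 1 SOX2 UMI and 104 held exactly 1 RFX4 UMI, and the mean was 1.35 UMIs for SOX2 and 16.98 for RFX4. In clusters built without the gate genes, the thinned RFX4 share was 98.3% in cluster 4 (led by CATSPERB, DGKG and TTC6), 88.1% in cluster 0 and 87.5% in cluster 1, against 28.7% in cluster 6, whose leading genes were RELN, NXPH1 and CACNA2D3. SOX2 separated the same clusters far less, with 17.2%, 20.3% and 17.7% against 12.7%. PAX3 was found in 4.57% of cluster 4, 26.97% of cluster 0 and 27.8% of cluster 1. The neuronal gene STMN2, a microtubule regulator of growing axons, was found in 15.5% of cluster 4, against 87.6% of cluster 6.

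**Figure D1:**
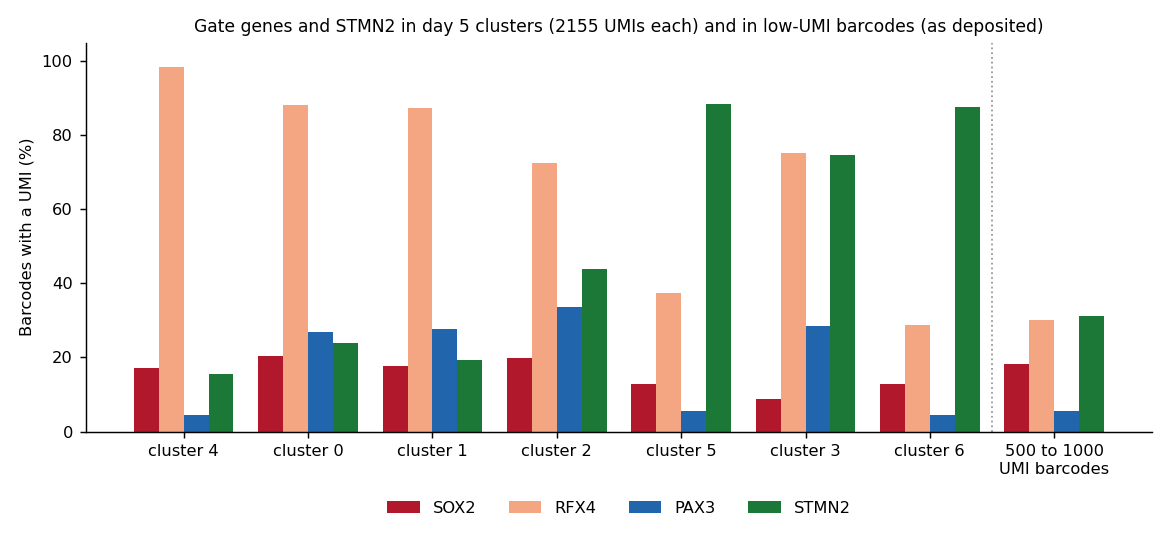
Share of barcodes with at least 1 UMI (%, vertical axis) of SOX2, RFX4, PAX3 and STMN2 in 7 day 5 clusters, each barcode thinned to 2155 UMIs, and in barcodes of 500 to 1000 UMIs at their deposited depth (right of the dotted line). RFX4 reaches 98.3% in cluster 4 and 28.7% in cluster 6, while SOX2 lies between 8.73% and 20.3% in all 7 clusters and at 18.2% in the low-UMI barcodes.

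The day 5 file also listed 50562 barcodes of 500 to 1000 UMIs (median 753), below the cell-calling threshold of 2155. SOX2 stood at 276 CPM there, with a UMI in 18.2% of barcodes, a mean of 0.208 UMIs per barcode. RFX4 stood at 496 CPM, with a UMI in 30.2%. The SOX2 share of clusters 4, 0 and 1 at 2155 UMIs thus lay near that of these shallower barcodes, and free RNA as a source of single SOX2 UMIs was not tested. SOX2-OT, a long RNA whose gene overlaps SOX2, was added after its values were seen. It stood at 372 CPM (359 to 385) in gated cells, against 535 CPM (508 to 563) in PAX3 barcodes and 469 CPM (462 to 475) in all others, and the sources used here do not say whether counting used strand.

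At the edge of the gate, levels are given for sets split by UMIs of the gate genes, as a description only. The glial factor gene NFIA stood at 1008 CPM in the 1091 gated cells with exactly 1 SOX2 UMI and at 1114 in the 362 with more. In the 84 gated cells with exactly 1 UMI of both genes NFIA stood at 248 CPM, and NRXN3, a presynaptic adhesion gene, at 999. These 84 were shallower, with a median of 3060 UMIs against 4635 and 5878.5 in the 2 sets before. The splits differ in depth and in the range of UMIs, so SOX2 and RFX4 cannot be ranked by them. Just outside, the 2934 barcodes that lacked only SOX2 had 867 CPM of NFIA and 352 of NRXN3, and the 87 that lacked only RFX4 had 157 and 2415. The 454 barcodes with SOX2, RFX4 and exactly 1 UMI over the 5 absent genes had 772 CPM of NFIA, and the 847 with more had 300.1.

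Compared with all other day 5 barcodes, gated cells had more NFIA, SPON1, TTC6 and TRPM3, and less NRXN3, MYT1L, CACNA2D3 and RELN. Of 11127 genes, 56 (0.503%) were called higher and 387 (3.48%) lower, with a median log2 ratio of 0.03 over all. The higher calls were small, with a median log2 of 1.08 and a largest of 1.53, so many lay close to the rule. With every barcode thinned to 2155 UMIs, 30 genes were higher, 21 of them among the 56, and 19 of 29 higher genes followed one by one came under 2-fold. With each barcode weighted alike, 18 of the 29 did. NFIA, a transcription factor of gliogenesis (chr1:60865259-61462793, GRCh38, plus strand), stood at 1039.9 CPM (1018 to 1062) in gated cells, against 503 CPM (497 to 510.0) in the others, a 2.07-fold ratio. It was found in 63.1% of thinned gated cells and 38.01% of the others, while the low-UMI barcodes held 115 CPM. With thinning its log2 ratio became 0.93, which ends the call.

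SPON1 encodes F-spondin, a secreted protein of the floor plate (chr11:13962689-14267884, plus strand), and stood at 1546 CPM (1519 to 1572) against 749.6 CPM (741 to 758). Unlike NFIA, it was abundant in the low-UMI barcodes, at 1105 CPM. SULF1, an extracellular heparan sulfatase named after its values were seen, stood at 1658 CPM (1630.5 to 1685) against 837 CPM (828 to 845), just short of 2-fold, with 1056 CPM in the low-UMI barcodes. Collagen and basement membrane genes included COL25A1, at 226 CPM (216 to 237) in gated cells against 99.6 CPM (96.6 to 103) in the others. COL23A1 stood at 214 CPM (204 to 224) against 103 CPM (99.8 to 106), and FREM2 at 126 CPM (118 to 134) against 52.7 CPM (50.6 to 54.9). The collagens were 2.27-fold and 2.08-fold higher in gated cells, and FREM2 had the larger ratio, 2.39-fold. LRP2, the endocytic receptor megalin, was also added after its values were seen and stood at 179.8 CPM (171 to 189) against 89.1 CPM (86.3 to 91.9). With thinning COL25A1 stayed past 2-fold at a log2 of 1.04, while the calls of SPON1 (0.79), COL23A1 (0.96), FREM2 (0.81) and LRP2 (0.98) ended.

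Some leading higher genes encode channels, receptors and signalling regulators, while the channel genes CACNA2D3 and KCND2, described with the lower calls, stood low. The cation channel gene TRPM3 stood at 492 CPM (477 to 507) in gated cells against 224 CPM (219.9 to 229) in the others, and TRPC4, another cation channel gene, at 377 CPM (364 to 391) against 181 CPM (177 to 185). PIEZO2, a mechanosensitive channel gene, stood at 167 CPM (159 to 176) against 77.7 CPM (75.1 to 80.4), and GALR1, a galanin receptor gene, at 148 CPM (140.3 to 157) against 71.6 CPM (69.1 to 74.2). All 4 passed the 2-fold rule, with ratios between 2.07-fold and 2.19-fold. DGKG, a diacylglycerol kinase gene, was 2.17-fold higher, and ARHGAP24, a GTPase-activating protein gene, 2.05-fold. TTC6 stood at 408 against 193 CPM, TRABD2B, a metalloprotease of WNT proteins, at 412 against 186, and DCDC2, a doublecortin-domain gene, at 199 against 89.6. With thinning the last 3 stayed past 2-fold, at log2 ratios of 1.01, 1.02 and 1.03. The calls of TRPM3 (0.96), TRPC4 (0.89), PIEZO2 (0.77), GALR1 (0.84), DGKG (0.94) and ARHGAP24 (0.91) ended. Of the 56 higher genes, 54 stood above their level in the low-UMI barcodes and 46 at least 2-fold above it.

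**Figure D2:**
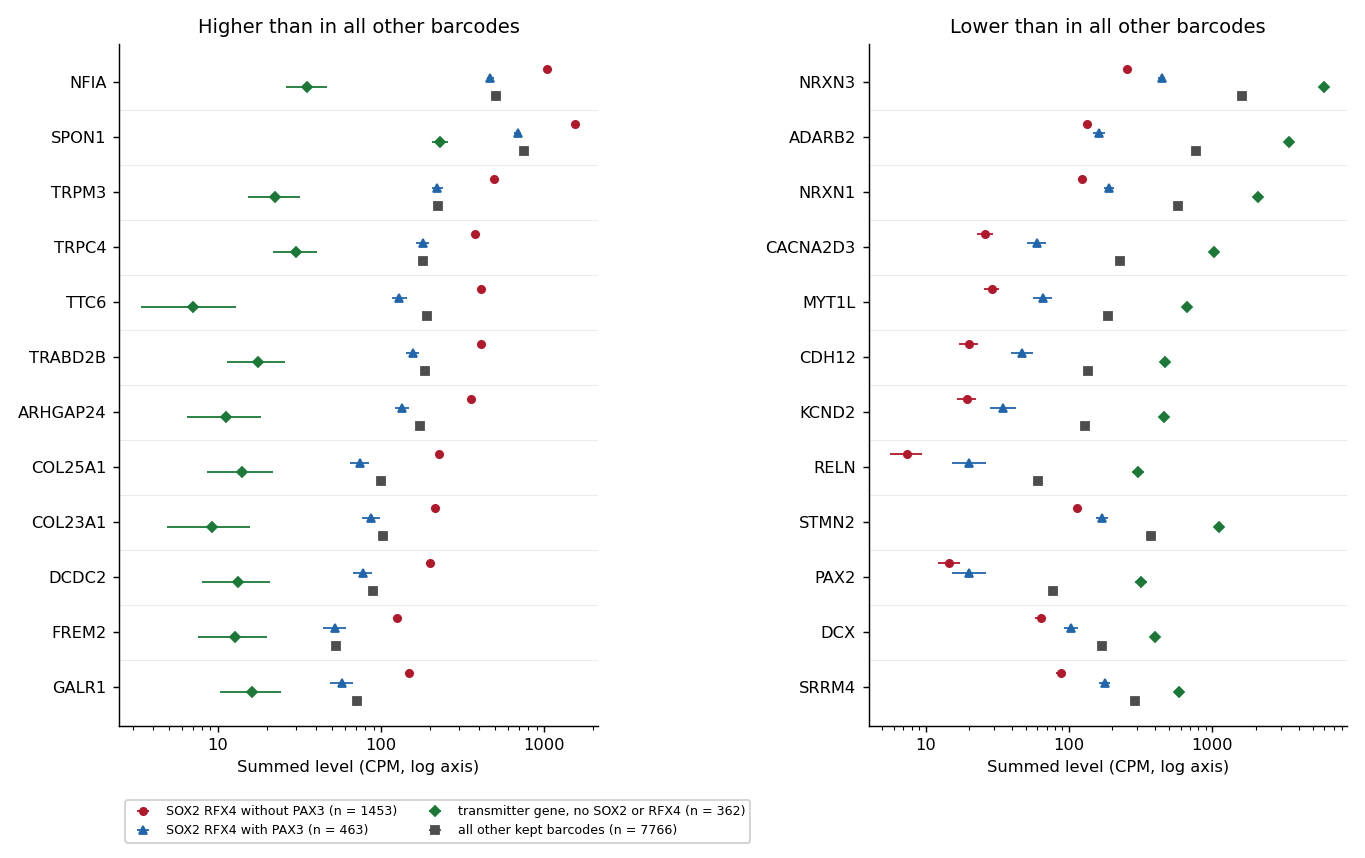
Summed level (CPM, log axis) of 12 genes called higher and 12 called lower in gated cells than in all other kept day 5 barcodes, shown for gated cells, PAX3 barcodes, transmitter barcodes and all others; bars are exact Poisson 95% intervals. NFIA lies at 1039.9 in gated cells and 35.2 in transmitter barcodes, and NRXN3 at 255 and 6043.

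These differences shrank when the comparison was with barcodes that lacked SOX2 but met every other condition, a comparison added after the data were seen. There 1 of 10999 genes (0.00909%) was higher and 6 (0.0546%) lower in gated cells. The 1 higher gene, AC008691.1, an unnamed clone, stood at 12.4 CPM against 5.99. Among the lower ones was RELN, the secreted glycoprotein reelin, at 7.39 CPM (5.68 to 9.45) against 14.97 CPM (12.99 to 17.2). SVOP and 3 clones were also lower, at 5.04 to 5.63 CPM in gated cells. The 56 genes higher than in all other barcodes had a median log2 of 0.33 here, between 0.06 and 0.77, where they had 1.08 above. NFIA, for instance, stood at 1039.9 CPM in gated cells and 867 in barcodes without SOX2, and TTC6 at 408 and 369. The calls over all other barcodes also depended on the absent genes. With those conditions dropped, the 2754 barcodes with SOX2 and RFX4 had 1 of 10917 genes higher and 2 lower than the rest.

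Many of the leading lower calls were genes of neurons. NRXN3 stood at 255 CPM (244 to 266) in gated cells and 1613 CPM (1601 to 1625) in the others, 6.33-fold lower in gated cells. MYT1L, a transcription factor of postmitotic neurons, stood at 28.8 CPM (25.4 to 32.7) against 187 CPM (183 to 192), and CACNA2D3, a calcium channel subunit gene, at 26.03 CPM (22.7 to 29.7) against 229 CPM (224 to 233). RELN fell to 7.39 CPM in gated cells, against 60.5 in the others, and the potassium channel gene KCND2 to 19.3 against 129. CDH12, a neuronal cadherin gene, and ADARB2, an RNA-editing family gene of inhibitory neurons, were 6.86-fold and 5.75-fold lower. The paired-box factors PAX2 and PAX8, known from inhibitory interneurons of the hindbrain and spinal cord, stood at 14.7 and 2.23 CPM, against 76.98 and 19.6. Since transmitter genes were barred by the gate, the direction of neuronal genes follows in part from how the cells were chosen.

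Read by list, pan-neuronal, proneural and transmitter genes held lower calls and no higher ones. Of 29 pan-neuronal members at 10 CPM or more, 16 were lower in gated cells and 0 higher, with a median log2 of -1.14, beside 3.48% lower among all genes. DCX, a microtubule protein of migrating neurons, stood at 63.5 CPM (58.3 to 69.1) against 169 CPM (166 to 173), and STMN2 at 115 CPM (108 to 122) against 374 CPM (369 to 380.3). TUBB3, neuronal tubulin, at 157 against 191 CPM, and MAP2, a dendritic microtubule protein, at 731 against 987, did not pass 2-fold. Among proneural and commitment genes 4 of 14 were lower (NEUROD4, MYT1, ST18 and SRRM4) and 0 higher, with a median of -0.62. SRRM4, a splicing regulator of neuronal exons, stood at 87.7 CPM (81.5 to 94.2) against 289.6 CPM (285 to 295). Transmitter and subtype genes other than those of the gate had 10 of 18 lower and 0 higher, median -1.20. A UMI of DCX or STMN2 was found in 29.9% (27.5 to 32.3, unthinned 48.9%) of thinned gated cells, against 49.3% (48.2 to 50.4, unthinned 64.8%) of the others, with exact binomial intervals. The low-UMI barcodes held 532 CPM of STMN2 and 162 of DCX, above the sum over all gated cells, and the part of free RNA in these shares was not tested.

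Progenitor and glial lists gave few calls in number, beside 0.503% higher and 3.48% lower among all 11127 genes. Of 30 radial glia and neural stem cell genes at 10 CPM or more, 1 was higher and 0 lower, and the list summed to 9097 CPM in gated cells and 8992 in the others. The higher member was TNC, a matrix glycoprotein of radial glia, at 33.9 CPM (30.1 to 38.03) against 16.00 CPM (14.8 to 17.2). VIM, an intermediate filament of progenitors and fibroblasts, stood at 1057 against 981 CPM, and NES at 140.2 against 122. Both were higher in the low-UMI barcodes, at 5646 and 579.6 CPM. SLC1A3, the glutamate transporter of radial glia and astrocytes, stood at 359 CPM (347 to 372) against 252 CPM (247 to 256), and SOX6, a factor of progenitors and glia, at 224 CPM (214 to 234) against 119.7 CPM (116 to 123). Of 17 astrocyte maturation genes, 2 were higher, NFIA and the hyaluronan receptor gene CD44, at 47.5 CPM (42.97 to 52.3) against 19.2 CPM (17.9 to 20.5), and 2 lower, SLC1A2 and NCAN, a transporter gene of mature astrocytes and a proteoglycan gene. With thinning neither list had a higher member, with log2 ratios of 0.88 for TNC, 0.93 for NFIA and 0.997 for CD44. GFAP and GJB6, markers of mature astrocytes, had 0 UMIs in all gated cells. NFIB, a relative of NFIA, stood at 246 CPM (236 to 257) against 166 CPM (162 to 170.2) and did not pass 2-fold.

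Cell cycle lists were slightly higher, with no member past 2-fold. All 50 of 50 G2 and M phase genes at 10 CPM or more lay above the others' level, with a median log2 of 0.46, and 38 of 41 S phase genes did, with a median of 0.27, beside 0.03 over all genes. TOP2A, a topoisomerase of dividing cells, stood at 236 CPM (226 to 246) against 165 CPM (161 to 169), and MKI67 at 70.5 CPM (64.9 to 76.3) against 51.5 CPM (49.4 to 53.7). A UMI of MKI67 or TOP2A was found in 41.8% (39.3 to 44.4, unthinned 65.2%) of thinned gated cells and 36.6% (35.5 to 37.7, unthinned 58.3%) of the others. In transmitter barcodes, which should hold neurons that have left the cycle, the share was 38.4% (33.4 to 43.6, unthinned 51.9%), and the low-UMI barcodes held 608 CPM of TOP2A. The interval of the gated share overlaps that of transmitter barcodes, the part of free RNA in these shares was not tested, and no share of cycling cells was read from these genes. CDC25C, a phosphatase that opens mitosis, stood at 74.8 CPM (69.1 to 80.8) in gated cells, 3.52 CPM in transmitter barcodes and 15.3 in the low-UMI barcodes.

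The comparison with PAX3 barcodes requires a UMI of SOX2 and of RFX4 on both sides and differs in the PAX3 condition. It matches neither the RFX4 level nor the cluster make-up. Cluster 4 took 52.2% of gated cells and 18.6% of PAX3 barcodes. RFX4 stood at 3834 CPM in cluster 4, 1394 in cluster 0 and 1190 in cluster 1. Differences that go with PAX3 and with cluster cannot be told apart here. The dorsal factor PAX7, the intermediate factor DBX2, the Hedgehog co-receptor BOC and the effectors GLI2 and GLI3 were lower in gated cells. The floor plate and ventral genes SPON1, FOXA2 and NKX6-1 were higher. Of 11195 genes, 211 (1.88%) were higher and 255 (2.28%) lower, with a median log2 of -0.03. That is 45.3% of calls higher under CPM scaling, against 56.0% with TMM factors, which gave 253 higher and 199 lower. PAX7, the dorsal paired-box relative of PAX3, stood at 35.2 CPM (31.3 to 39.4) in gated cells and 110.2 CPM (98.2 to 123) in PAX3 barcodes, 3.13-fold lower. DBX2, a homeobox factor of intermediate progenitors, stood at 7.04 CPM (5.37 to 9.06) against 39.2 CPM (32.2 to 47.3), and PAX6, a progenitor factor graded along the axis, at 29.8 CPM (26.2 to 33.7) against 66.6 CPM (57.3 to 76.9). IRX5, another homeobox factor, stood at 7.04 against 16.6 CPM, but its log2 ratio turned to 0.10 without barcodes that held MKI67 or TOP2A.

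Of the Hedgehog pathway list, 3 of 13 members were lower and 0 higher, beside 2.28% lower and 1.88% higher among all genes. The list's median log2 was -0.33. By role, the co-receptor gene BOC stood at 129 CPM (122 to 137) in gated cells against 282 CPM (262 to 302) in PAX3 barcodes. The effector genes GLI2, at 124 CPM (116 to 131) against 288 CPM (268 to 308), and GLI3, at 196 CPM (186 to 205) against 470.2 CPM (445 to 496), were 2.33-fold and 2.40-fold lower. PTCH1, the receptor gene that is also a pathway target, at 104 CPM (97.2 to 111) against 183 CPM (168 to 199.9), and CDON, at 46.1 against 56.9 CPM, did not pass 2-fold. The ligand gene SHH stood the other way round, at 100.01 CPM (93.4 to 107) against 54.00 CPM (45.7 to 63.4), also short of 2-fold. In the low-UMI barcodes SHH stood at 165 CPM, above the gated cells.

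Ventral genes were split, in a comparison where 1.88% of all genes were higher and 2.28% lower. Of 10 ventral and intermediate factors at 10 CPM or more, 3 were higher (NKX6-1, FOXA2 and SPON1) and 3 lower (DBX2, IRX5 and SP8), with a median log2 of 0.32 that became -0.81 with every barcode thinned. FOXA2, a floor plate factor, stood at 14.8 CPM (12.3 to 17.6) against 6.12 CPM (3.57 to 9.80), and NKX6-1, a factor of ventral progenitors, at 27.4 CPM (24.03 to 31.2) against 11.9 CPM (8.18 to 16.7). Both rest on few UMIs, 126 and 234 over 1453 gated cells, and both lie below their low-UMI level of 31.9 and 69.1 CPM. SPON1 stood at 1546 CPM (1519 to 1572) against 688 CPM (657 to 719).

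**Figure D3:**
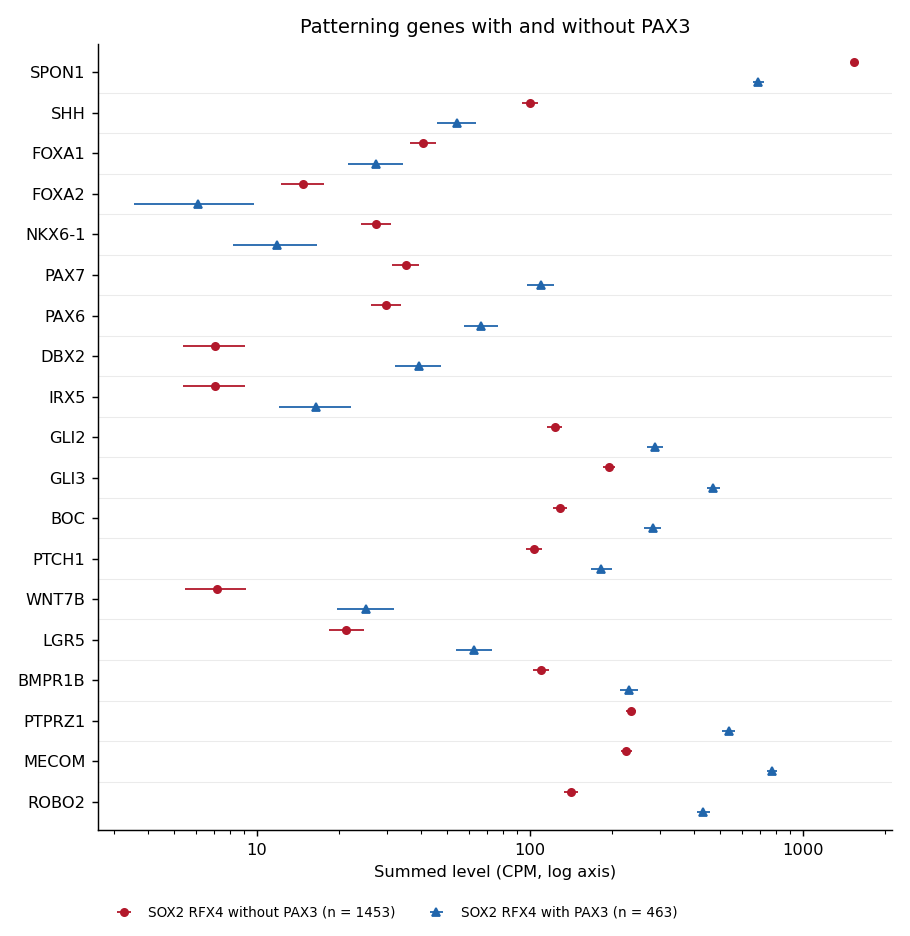
Summed level (CPM, log axis) of patterning, progenitor and guidance genes in gated cells (circles) and PAX3 barcodes (triangles), with exact Poisson 95% intervals. The floor plate and ventral genes SPON1 to NKX6-1 lie higher in gated cells, and PAX7 to ROBO2 lie lower (IRX5 not so without barcodes that held MKI67 or TOP2A), with GLI3 at 196 and 470.2.

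Other signalling and progenitor genes were also lower in gated cells than in PAX3 barcodes, where 2.28% of all genes were lower and 1.88% higher. MECOM, a zinc-finger factor, stood at 226 CPM (216 to 237) against 769.7 CPM (737 to 803), and PTPRZ1, a receptor phosphatase of radial glia, at 235 CPM (225 to 246) against 535 CPM (508 to 563). Of the WNT list, 2 of 24 members were lower and 0 higher: the ligand gene WNT7B, at 7.15 CPM (5.47 to 9.19) against 25.2 CPM (19.6 to 31.8), and the R-spondin receptor gene LGR5, at 21.3 CPM (18.4 to 24.7) against 62.6 CPM (53.7 to 72.7). Of the BMP list, 2 of 18 were lower, among them the receptor gene BMPR1B at 110.2 CPM (103 to 117) against 231 CPM (214 to 249.7). ROBO2, a receptor for Slit guidance cues, stood at 142 CPM (134 to 150.2) against 433 CPM (409 to 458), and ANOS1, a secreted matrix protein gene, at 19.00 CPM (16.2 to 22.2) against 92.9 CPM (81.9 to 105). FAT4, a giant cadherin of planar polarity, was 2.26-fold lower. Radial glia genes were called in both directions, with 2 higher, among them TNC, and 4 lower, PAX6, PTPRZ1, GLI3 and SALL3, of 31.

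Leading higher genes over PAX3 barcodes included TTC6, which also led over all other barcodes, a set that contains the PAX3 barcodes. TTC6 stood at 408 CPM against 129.6, 3.15-fold. NFIA was called higher in both comparisons but did not lead here, at 1039.9 CPM against 469, 2.22-fold. ARSJ, an arylsulfatase family gene, stood at 78.4 CPM (72.6 to 84.6) against 21.96 CPM (16.8 to 28.2), and TNFRSF19, a TNF receptor family gene, at 65.8 CPM (60.4 to 71.5) against 22.3 CPM (17.1 to 28.6). GRIN2A, an NMDA receptor subunit gene, was higher at 624 CPM (608 to 641) against 298 CPM (278 to 319), and was 1.78-fold higher than in all other barcodes, short of the rule. CDHR3, a cadherin-related gene known from ciliated cells, stood at 614 CPM (598 to 631) against 237 CPM (219 to 256). PDZRN4, a PDZ and RING domain gene, stood at 600.3 CPM (584 to 617) against 224 CPM (206 to 242), and ARHGAP24 at 357 CPM (345 to 370.2) against 134 CPM (121 to 149).

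Because RFX factors bind the X-box, the promoters of these leading genes were searched for an X-box half-site, GTTGCCA, and for a SOX motif, ACAAAGG, on both strands. Windows ran from 250 bases before to 50 after the RefSeq start (GRCh38.p14). Of the 15 genes with the largest ratio over PAX3 barcodes, 14 had a promoter sequence and 3 held the half-site, ARHGAP24, CDHR3 and PDZRN4, shown here because they are the members that do. The share over all 27305 promoters was 4.13%. Of the leading genes over all other barcodes 0 of 12 held it, and over transmitter barcodes 1 of 13. The SOX motif was in 5.27% of all promoters and in 0 of each set. A match describes the letters only. The sequences run 5' to 3' on the plus strand with the half-site in capitals, starting 104, 60 and 46 bases before the start, and in CDHR3 the match is on the minus strand.
ARHGAP24, chr4:85474900-85475199: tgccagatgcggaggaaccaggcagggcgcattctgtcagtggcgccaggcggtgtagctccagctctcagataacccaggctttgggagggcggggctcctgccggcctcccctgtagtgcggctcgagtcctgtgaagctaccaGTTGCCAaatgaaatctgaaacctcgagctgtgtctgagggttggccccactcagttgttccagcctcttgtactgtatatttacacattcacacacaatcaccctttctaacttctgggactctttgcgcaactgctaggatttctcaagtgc
CDHR3, chr7:105963014-105963313: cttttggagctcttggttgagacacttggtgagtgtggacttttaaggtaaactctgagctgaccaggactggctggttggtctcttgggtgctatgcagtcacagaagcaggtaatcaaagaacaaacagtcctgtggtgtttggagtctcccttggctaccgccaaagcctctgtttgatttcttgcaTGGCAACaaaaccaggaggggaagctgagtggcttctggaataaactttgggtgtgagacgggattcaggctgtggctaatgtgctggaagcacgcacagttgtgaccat
PDZRN4, chr12:41437489-41437788: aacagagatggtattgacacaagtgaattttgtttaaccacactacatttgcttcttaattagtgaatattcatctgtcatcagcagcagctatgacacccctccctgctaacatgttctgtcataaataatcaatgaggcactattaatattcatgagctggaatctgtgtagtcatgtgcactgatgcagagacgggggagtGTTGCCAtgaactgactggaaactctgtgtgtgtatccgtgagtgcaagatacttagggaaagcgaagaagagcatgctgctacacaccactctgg

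Against transmitter barcodes, the neuronal end of the library, 1743 of 11453 genes (15.2%) were higher in gated cells and 1107 (9.67%) lower, with a median log2 of 0.16. The gate fixes much of this direction, since transmitter barcodes were chosen for a neuronal gene and for lacking SOX2 and RFX4. TTC6 stood at 408 CPM (395 to 422) in gated cells and 7.03 CPM (3.37 to 12.9) in transmitter barcodes, 58.1-fold, and NFIA at 1039.9 against 35.2 CPM (26.1 to 46.4). SLC1A3 was 8.97-fold higher and SOX6 24.5-fold. TCF7L2, a transcription factor of WNT signalling, stood at 485 against 35.9 CPM, a 13.5-fold ratio. Astrocyte maturation genes had 10 of 17 members higher and 2 lower, and radial glia genes 9 of 31 higher and 0 lower. VIM (1057 against 1141 CPM) and NES (140.2 against 128) did not pass.

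Of the 41 S phase genes 23 were higher than in transmitter barcodes, and of 50 G2 and M phase genes 30, with 0 lower in either list. Among all genes of this comparison 15.2% were higher and 9.67% lower. Without barcodes that held MKI67 or TOP2A, the G2 and M phase genes had 5 higher of 45, near the 11.1% higher among all genes under that setting. There CENPA and KIF2C turned to log2 ratios of -0.18 and -0.28. NUSAP1, a spindle protein gene, stood at 111 CPM (104 to 118) against 17.6 CPM (11.4 to 25.96), and RRM2, a ribonucleotide reductase subunit gene, at 91.3 CPM (85.04 to 97.98) against 26.7 CPM (18.9 to 36.7). MKI67 and TOP2A, high in the low-UMI barcodes, did not pass 2-fold (0.42 and 0.72 on the log2 scale). Cilia and ependymal genes had 9 of 10 members higher and 0 lower, with a median log2 of 2.66, and 6 of 10 without those barcodes. SPAG17, a gene of the ciliary axoneme, turned to a log2 ratio of -0.18 with comparison barcodes weighted by UMIs. Among them the dynein gene DNAH7 stood at 84.2 CPM (78.1 to 90.6) against 6.33 CPM (2.89 to 12.02), and HYDIN, a gene of motile cilia, at 51.5 CPM (46.8 to 56.5) against 9.14 CPM (4.87 to 15.6). RFX2, a relative of RFX4, stood at 164 CPM (155 to 173) against 22.5 CPM (15.4 to 31.8). Against all other barcodes the same list had 10 of 10 above the others' level and 0 past 2-fold, and FOLR1, OTX2 and MCIDAS had 0 UMIs in gated cells. Pan-neuronal genes had 26 of 29 members lower and 0 higher.

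**Figure D4:**
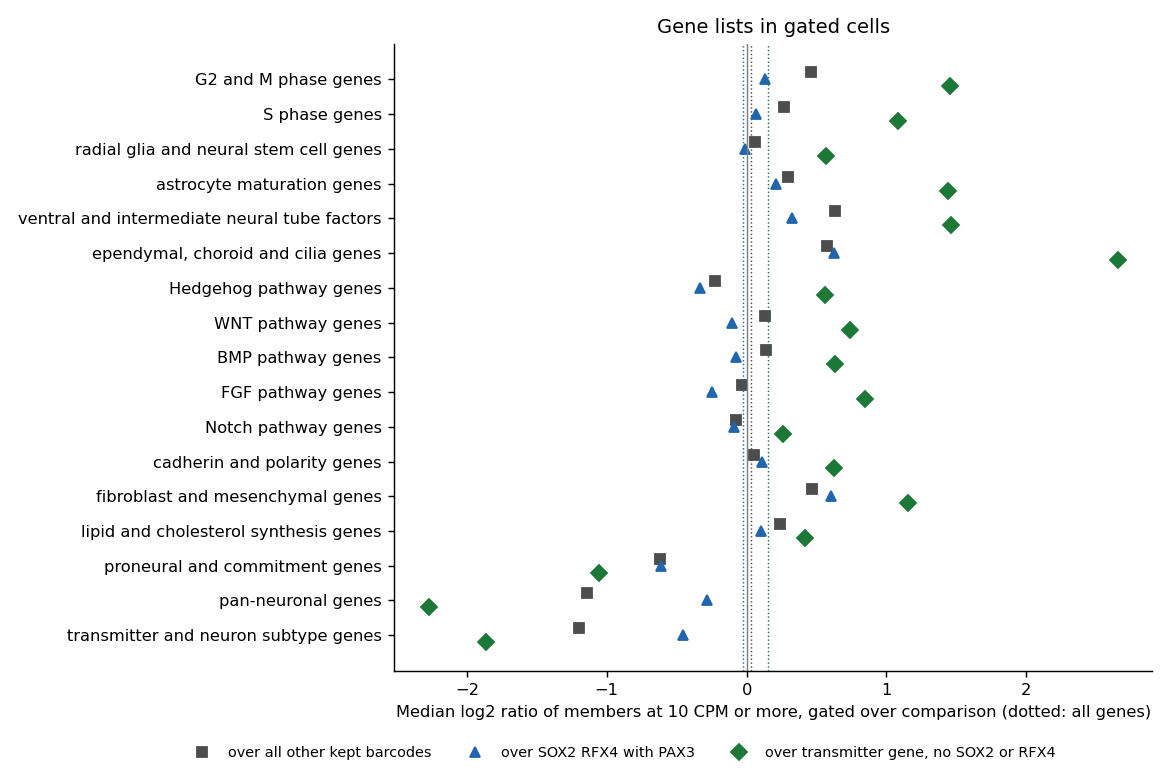
Median log2 ratio (horizontal axis) of the members of 17 gene lists at 10 CPM or more, gated cells over all other kept barcodes (squares), over PAX3 barcodes (triangles) and over transmitter barcodes (diamonds); dotted lines give the median over all genes of each comparison. Pan-neuronal genes lie at -1.14, -0.29 and -2.27, and G2 and M phase genes at 0.46, 0.13 and 1.46.

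The gated cells were not of 1 kind. Cluster 4 held 759 of them (52.2%), cluster 0 held 289 (19.9%) and cluster 1, led by APOLD1, NEIL3 and NOSTRIN, 266 (18.3%). Clusters 2, 5, 3 and 6 held 58, 42, 38 and 1. PAX3 barcodes lay in clusters 1 (31.7%), 0 (28.5%) and 4 (18.6%), and transmitter barcodes in clusters 5 (49.4%), 6 (34.8%) and 3 (11.1%). Gated cells were 27.3% of cluster 4, 17.2% of cluster 0 and 16.3% of cluster 1. Clusters were kept by number here. The leading genes of cluster 2 included 3 neuronal precursor markers, NEUROD4, DLL3 and HES6. Its 58 gated cells had DLL3 at 505 CPM and HES6 at 473, against 20.6 and 42.8 in gated cells of cluster 4.

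**Figure D5:**
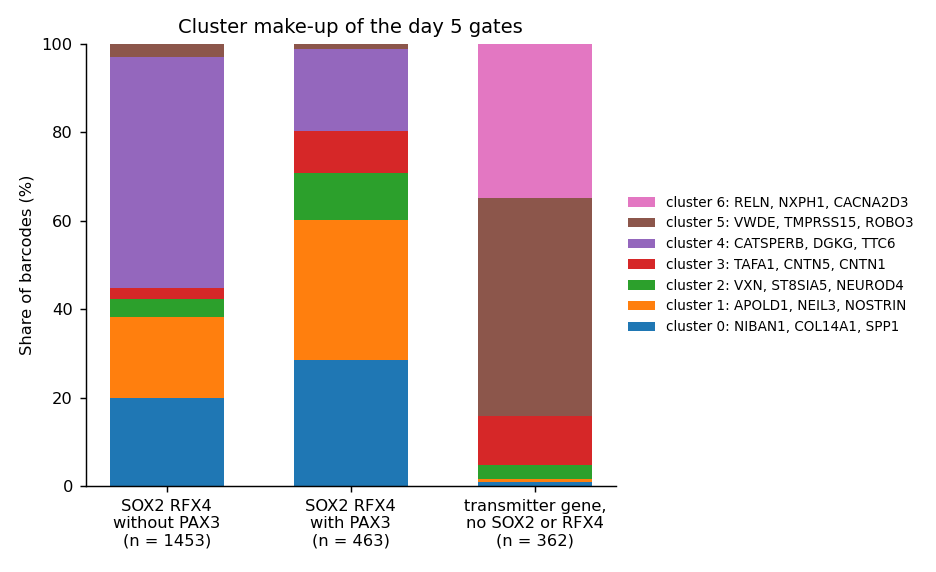
Share of barcodes (%, vertical axis) in each of 7 day 5 clusters, for gated cells, PAX3 barcodes and transmitter barcodes; the legend gives each cluster's 3 leading genes. Cluster 4 takes 52.2% of gated cells and 18.6% of PAX3 barcodes.

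Within the gate the leading genes followed the clusters, which were themselves built on these genes, so their values are a description. NFIA stood at 1506 CPM in gated cells of cluster 4, 512 in those of cluster 1 and 241 in those of cluster 0. SPON1 stood at 2399.8, 198 and 320.1 CPM in the same order, and TTC6 at 669, 15.5 and 21.5. GRIN2A went with them, at 989 CPM in cluster 4 and 69.2 in cluster 1. GLI3, PTPRZ1 and PAX6 ran the other way: PTPRZ1 stood at 113 CPM in gated cells of cluster 4, 434 in cluster 1 and 469.9 in cluster 0, and PAX6 at 9.42, 71.9 and 66.9. PAX7, a dorsal gene, stood at 48.9 CPM in cluster 4, above its 8.74 and 18.3 in clusters 1 and 0. APOLD1, a gene known from endothelial cells, was high in cluster 1, at 389 CPM against 114 in cluster 4. Cell cycle genes were high there too, with CDC25C at 167 CPM against 70.5 in cluster 4 and 10.4 in cluster 0. TOP2A stood at 329, 241 and 163 CPM in the same order. Over all gated cells, APOLD1 stood at 194 CPM in those with a UMI of MKI67 or TOP2A and 25.4 in those without. The 38 gated cells of cluster 3 and the 42 of cluster 5 had STMN2 at 614 and 866 CPM, against 63.2 in cluster 4.

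Gated cells with a UMI of MKI67 or TOP2A (947 cells, median 5346 UMIs) and without (506 cells, median 4088.5 UMIs) differed little in some leading genes and more in others. NFIA stood at 1065 CPM in those with a UMI and 976 in those without, and TTC6 at 411 and 402. PIEZO2 stood at 185 CPM (175 to 197) and 121 CPM (108 to 136), and COL25A1 at 246 CPM (233 to 258) and 177 CPM (161 to 195). CDHR3 ran the other way, at 568 CPM (550 to 588) and 732 CPM (698 to 767). Some cell cycle genes differed: CDC25C stood at 97.8 and 16.2 CPM, and NUSAP1 at 135 and 48.7. The 2 sets differ in depth, which also moves the chance of a UMI of either gene.

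Along the head-to-tail axis, 5 of 32 HOX genes and 4 of 29 forebrain and midbrain factors reached 10 CPM. A UMI of any HOX gene was found in 30.3% (27.9 to 32.7, unthinned 54.6%) of thinned gated cells and 30.2% (29.2 to 31.2, unthinned 53.6%) of the others. HOXB3 stood at 81.7 CPM (75.8 to 88.02) against 104 CPM (101 to 107), and HOXB4 at 13.7 CPM (11.3 to 16.4) against 12.7 CPM (11.7 to 13.8), while day 0 fibroblasts also held HOXB3 at 59.96 CPM and HOXB4 at 25.3. Of the HOX genes at 10 CPM, 0 were called in either direction, beside 0.503% higher and 3.48% lower among all genes, and 18 of the 32 had 0 UMIs in gated cells. Of 29 forebrain and midbrain factors 15 had 0 UMIs, 0 were higher and 2 lower, PAX2 and PAX8. That list summed to 523 CPM in gated cells, most of it from TCF7L2, against 153 CPM for HOX genes. PAX7 was found in 5.99% of thinned gated cells, against 21.8% of PAX3 barcodes, 1.93% of transmitter barcodes and 9.08% of all others.

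Markers of other cell types stood beside these groups. Of 15 fibroblast and mesenchymal genes at 10 CPM or more, out of 25, all 15 lay above the others' level and 1, TWIST2, passed 2-fold (12.3 against 6.04 CPM), though none did with TMM factors or with 2 UMIs of each marker. The list's median log2 was 0.47, beside 0.03 over all genes, of which 0.503% were higher and 3.48% lower. The list summed to 1069 CPM in gated cells and 771 in the others, 729.7 in PAX3 barcodes and 577 in transmitter barcodes, with 0 members at 0 UMIs in gated cells. COL1A2, a fibrillar collagen gene, stood at 219 CPM (209 to 229) against 146 CPM (142 to 149), and at 513 CPM in the low-UMI barcodes, and COL1A1 at 10.6 CPM (8.49 to 12.97) against 10.1 CPM (9.19 to 11.1). The part of free RNA or of RNA from fibroblasts in the matrix genes named above was not tested. Oligodendrocyte lineage genes reached 10 CPM in 5 of 16, with 0 called, and OLIG1, OLIG2, MOG and MAG had 0 UMIs. A UMI of OLIG1, OLIG2, SOX10, CSPG4 or PDGFRA was found in 1.58% (1.01 to 2.37, unthinned 3.17%) of thinned gated cells and 1.58% (1.32 to 1.89, unthinned 3.64%) of the others.

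Other lists gave few calls in number against all other barcodes, beside 0.503% higher and 3.48% lower among all genes. Ventral and intermediate factors had 1 higher (SPON1) and 1 lower (DBX2) of 8. Notch had 0 higher and 1 lower (DTX1) of 21, WNT 0 and 0 of 24, Hedgehog 0 and 0 of 13, and sterol and lipid synthesis 0 and 0 of 21. The Notch coactivator gene MAML2 stood at 1551 CPM (1524 to 1577) against 917 CPM (908 to 926), and NTRK2, the BDNF receptor gene, at 1409 CPM (1384 to 1434) against 925 CPM (916 to 934). Neither passed 2-fold, and NTRK2 stood at 1394 CPM in the low-UMI barcodes. BMP6, a BMP ligand gene, was the only BMP member called, at 34.5 CPM (30.6 to 38.6) against 16.9 CPM (15.7 to 18.2), and ETV5, a transcription factor downstream of FGF, the only FGF member, at 17.1 against 7.94 CPM. With thinning the ventral, BMP and FGF lists had 0 higher members, and BMP6 a log2 ratio of 0.67. Cadherin and polarity genes had 0 higher and 2 lower (CDH12 and CTNNA2) of 25. Nuclear retained RNAs had 1 of 5 lower, MIAT, at 71.6 CPM (66.1 to 77.6) against 174 CPM (170.1 to 178), while MALAT1 stood at 73541 against 72203 CPM. Dorsal factors, epithelial and blood genes, pluripotency genes and immediate early and stress genes had 0 called of 2, 2, 3 and 6, and neural crest genes 1 lower of 3, NGFR.

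The genes most like the gate in their distribution were ranked by the ratio of their thinned share in gated cells to that in the others, among genes found in at least 10% of gated cells before thinning, all within the 1 day 5 library. SERPINI2, a serpin family gene, came first, with 5.99% of gated cells and 2.50% of the others, a ratio of 2.40. CATSPERB, a subunit gene of the sperm calcium channel, had a ratio of 2.26, CD109 2.17 and IPCEF1 2.17. RHOJ, GRAMD2B, LRRK2, RGS9, TRABD2B and TTC6 followed, with ratios from 1.94 to 1.91. Of these 10, TRABD2B and TTC6 were the most widely found, in 39.6% and 35.9% of thinned gated cells.

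At the earlier times no barcode passed the gate. Of 16773 kept barcodes at day 0 and 11454 at day 3, 0 held both SOX2 and RFX4, at median depths of 14039 and 1324 UMIs. At the day 3 depth, a given cell with few SOX2 transcripts can be missed. The shallower day 5 barcodes of 500 to 1000 UMIs, at a median of 753, held a SOX2 UMI in 18.2%. Over all kept barcodes, SOX2 had 0 of 246546451 UMIs at day 0 and 0 of 18743865 at day 3. RFX4 had 9 UMIs at day 0 and 33 at day 3. The labels describe days 0 and 3 as nuclei taken through an ATAC kit, yet their files hold gene counts. For day 5 they describe dissociated cells on a gene expression kit, but name the ATAC kit for the library too. How the libraries differed in preparation is thus not certain, and preparation and day cannot be told apart. Levels of the earlier days are therefore given side by side with no ratio, as CPM over 32732 genes common to the feature tables. TTC6 stood at 0.150 CPM at day 0 and 0.0534 at day 3, and TRPM3 at 0.312 and 4.92. NFIA stood at 5.34 and 64.6 CPM, and SPON1 at 0.641 and 17.8. SHH stood at 0.0446 and 0 CPM, beside a floor of 3 UMIs that equals 0.0122 CPM for day 0 and 0.160 for day 3. Some genes called higher in gated cells were already present in the fibroblasts: CD44 stood at 1165 and 284 CPM, TNC at 61.3 and 145, and ARSJ at 124 and 21.3. Barcodes shared with the kept day 5 set numbered 47 at day 0 and 27 at day 3, of which 8 and 6 were gated cells.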

How the data were processed

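Files held UMI counts per gene and barcode, deposited by the authors without normalization, for 3 libraries, 1 per group. Cell Ranger 4.0.0 and the builds hg38 and GRCh38 are named per the submitters' processing notes; the sources used here do not say how introns and strand were treated. The day 5 matrix lists 2037119 barcodes and 36601 genes. Day 5 barcodes were kept at 2155 UMIs (the whole number at or above 1/10 of the 99th percentile of the top 10000), 300 or more genes and no more than 20% mitochondrial UMIs; days 0 and 3 were kept at 500 UMIs with the same other limits. Kept libraries held 246546451, 18743865 and 51708522 UMIs.

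The members, the 26 gene lists and the comparisons were chosen with earlier results of these data known. UMIs were summed per set and divided by the set's total, with exact Poisson 95% intervals and, for shares, exact binomial ones; a set under 3 UMIs was put at 3 in ratios. No test was run, since cells are not replicates. The 7 gate genes were left out. Named genes were the 15 largest and 15 smallest log2 ratios per comparison of genes reaching 50 CPM in either set whose intervals were apart (no unnamed clones, mitochondrial or ribosomal protein genes), the 6 highest members of each list and every member called at 20 CPM, regional factors found in 2% of gated cells, 10 genes named always and the 10 most alike. SOX2-OT, SULF1, LRP2, SVOP and AC008691.1 were named after their values were seen, and list members named below these limits likewise. PALS1 was not found among the features.

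Clusters came from scanpy 1.11.5 and igraph 0.11.9 (2000 variable genes without the gate genes, 30 components, 15 neighbours, Leiden resolution 0.5), and TMM factors from edgeR 4.0.16 in R 4.3.3. The call rule was tested on simulated counts. Alternatives covered cell calls, filters, gate strictness, scaling, barcode weight, depth, free RNA, cycling barcodes, possible doublets, the CPM minimum and the fold. Gene coordinates come from GENCODE 29 and promoters from RefSeq (GRCh38.p14). Some results are not reported here.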

Additional observations from a re-analysis of the deposited data

Results flagged for a closer look

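Barcodes below the cell-calling threshold also passed the gate. Of 7395 day 5 barcodes with 1000 UMIs up to the threshold of 2155, at a median of 1110 UMIs, 634 (8.57%) held SOX2 and RFX4 and none of the 5 absent genes, against 1453 (15.8%) of the kept barcodes. They stood out because they lie outside the main measurement and the day 0 and day 3 libraries had no barcode in the gate. They were left out of the report's values.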

How the results depend on the processing

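Genes higher in gated cells than in all other barcodes numbered 56, and genes lower 387. The higher count became 95 with 2 UMIs of each marker, 30 with thinning, 94 with the 20 to 100 UMI profile subtracted, 137 with the 500 to 1000 UMI profile, 104 without barcodes that held MKI67 or TOP2A and 256 without the SOX2 condition. Both counts, higher and lower, became 23 and 238 with mean per-barcode CPM, 28 and 155 at a minimum of 50 CPM, 170 and 865 with no minimum, and 518 and 845 at 1.5-fold. They became 1253 and 983 against barcodes with 0 of SOX2 and RFX4, 1 and 2 for all barcodes with both markers, and 1 and 6 against barcodes lacking only SOX2. Over PAX3 barcodes the higher count became 352 with the 500 to 1000 UMI profile, and both counts 82 and 100 at 50 CPM, and 569 and 650 at 1.5-fold. Over transmitter barcodes they became 2634 higher with that profile, and 742 and 545 at 50 CPM. Gated cells numbered 342 with 2 UMIs of each marker, 925 with the gate applied after thinning and 4387 without the SOX2 condition. The 500 to 1000 UMI profile, the comparison lacking only SOX2 and the gate without SOX2 were chosen after seeing the data. Why these values moved was not tested, apart from the minimum and fold, which change the rule itself.

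Of 7392 gene values under alternatives, 6113 stayed within the range set by the main intervals, 1270 moved and 9 reversed. The tally includes the 50 CPM minimum, no minimum and 1.5-fold, which leave every ratio as it was, so those values could not move. Genes not called in the main comparison could not count as reversed. The tally is therefore no measure of stability. The log2 ratio of DBX2 became 0.16 for all barcodes with both markers. Over PAX3 barcodes CDH12 became 0.21 with 2 UMIs of each marker, COL1A1 -1.62 with the 20 to 100 UMI profile subtracted, and IRX5 0.10 and NELL1 0.0107 without MKI67 or TOP2A barcodes. Over transmitter barcodes KIF7 became -0.0027 and SPAG17 -0.18 with comparison barcodes weighted by UMIs, and CENPA -0.18 and KIF2C -0.28 without MKI67 or TOP2A barcodes. No paired analysis was possible because each group is 1 library. Depth limits shares of low genes such as SOX2, and doublets were not removed.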

Other observations

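Of 50562 day 5 barcodes of 500 to 1000 UMIs, 2500 (4.94%) passed the gate, and 15 of 85 barcodes (17.6%) left out for few genes or many mitochondrial UMIs did. All 2754 barcodes with SOX2 and RFX4, whatever else they held, had 1 gene higher and 2 lower than the rest.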
